A study of Mus musculus with 4 samples.

Results

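The cells described here are activated CD8+ T cells rich in transcripts of mitosis. A barcode was kept as a cell when it had at least 6500 unique molecular identifiers (UMIs), at least 500 genes and under 10% of UMIs in mitochondrial genes. Kept cells were members when UMIs of Cdc20, Plk1, Ccnb1, Cenpf, Cenpa and Aspm together reached 10 or more per 10000 UMIs, a value called the score below. This rule took 2165 of 9921 kept cells, or 21.8%.

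The study asked how the bacterial fatty acid butyrate acts on CD8+ T cells in culture, and its series concerns CD127+ CD8+ T cell immunity against melanoma. All cells came from spleens of gBT-I.CD45.1 transgenic mice, whose T cells carry one receptor for a peptide of a viral glycoprotein B, and were activated with peptide-pulsed splenocytes and LPS and grown in interleukin-2. Each of 2 mice gave a control culture, treated with PBS, and a butyrate culture, which had sodium butyrate at 0.5 mM between days 3 and 5. Sorting on day 6 for viable cells positive for CD8 and Vα2 preceded capture and gave 4 droplet libraries in one batch: control 1 and butyrate 1 from mouse 2, control 2 and butyrate 2 from mouse 3. The groups share the transgene, the activation and the interleukin-2, and differ by label in butyrate alone. Ages are not given in the labels.

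At the end of interphase a dividing cell makes the proteins that condense and pull apart its chromosomes. The kinases CDK1, PLK1 and the Aurora kinases drive entry, the kinetochore ties chromosomes to the spindle, and the anaphase-promoting complex then destroys cyclin B and securin to let the cell divide. Transcripts of many of these genes peak together in G2 and mitosis under the transcription factors B-MYB and FOXM1 and are held down at other times by the DREAM complex, which acts through a short promoter element named the cell cycle genes homology region (CHR). Butyrate inhibits histone deacetylases and is known to slow division in many cell types.

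The 6 genes of the rule serve different steps. Cdc20 activates the anaphase-promoting complex, Plk1 is a kinase of mitotic entry, Ccnb1 encodes cyclin B1, Cenpf a large kinetochore protein, Cenpa the histone variant that marks the centromere, and Aspm a spindle pole protein. Their promoters are shown because all 6 carried a CHR core near the start of transcription. The element was searched as TTTGAA or TTTAAA on both strands (TTTAAA is its own reverse complement) in RefSeq windows from 250 bases before to 50 bases after each start (GRCm38.p6). Within 50 bases of the start it was present in 6 of 6 rule genes and in 8.28% of all 32851 promoters of the table. Sets of genes, here and below, were counted per gene over all its promoters, and the 8.28% was counted per promoter. Thirty-base windows follow, written on the gene's strand, 5′ to 3′, with the CHR core in capitals, for the 6 rule genes and for Ccnb2 and Ube2c, a cyclin and a ubiquitin-conjugating enzyme of mitosis that the rule did not use.
Cdc20, chr4:118437344-118437373, minus strand: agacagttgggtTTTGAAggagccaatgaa
Plk1, chr7:122159394-122159423, plus strand: gcgggtttgtatTTTAAAtccccgcggcca
Ccnb1, chr13:100786511-100786540, minus strand: agcggcccggggTTTAAAcctaagcccggc
Cenpf, chr1:189688067-189688096, minus strand: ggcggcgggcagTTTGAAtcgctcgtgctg
Cenpa, chr5:30666857-30666886, plus strand: acaaagttgggaTTTAAAagatgcggtggg
Aspm, chr1:139454767-139454796, plus strand: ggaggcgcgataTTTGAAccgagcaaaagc
Ccnb2, chr9:70421533-70421562, minus strand: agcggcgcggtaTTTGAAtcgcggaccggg
Ube2c, chr2:164769888-164769917, plus strand: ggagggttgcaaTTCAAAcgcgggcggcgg
In Ube2c the core lies on the opposite strand, so TTTGAA reads as TTCAAA. A match describes letters only and is not a measured binding site.

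Library totals ranged from 64388093 to 76522004 UMIs. Libraries shared between 1 and 5 kept barcodes in each pair. Nothing in the labels names separate cultures beyond the mouse, so the spread between the 2 libraries of a group may be partly technical. The 10 CD8 T cell markers summed to between 90.3 and 113 UMIs per 10000 in members of the 4 libraries, with none at 0. The 9 myeloid markers summed to 0.0178 and 0.0217 in control and 0.140 and 0.142 in butyrate members, with 6 or 7 of the 9 at 0 in each library. B cell markers summed to 1.46 and 1.57 in control and 0.464 and 0.471 in butyrate, with 3 or 4 of 7 at 0. NK cell markers summed to 0.679 and 0.788 in control and 0.850 and 1.06 in butyrate, with 1 to 3 of 6 at 0. Markers of CD4 or regulatory T cells summed to between 0.710 and 1.17, of dendritic cells to between 0.445 and 0.765, and of erythroid cells or platelets to at most 0.00472. The part of other cell types in the results was not tested.

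Members were far fewer under butyrate. They made up 37.6% of control 1 (777 of 2065 cells, exact 95% binomial interval 35.5 to 39.8%) and 37.5% of control 2 (990 of 2638, 35.7 to 39.4%). In butyrate 1 they were 7.497% (192 of 2561, 6.51 to 8.59%) and in butyrate 2 they were 7.75% (206 of 2657, 6.76 to 8.84%). Both butyrate libraries lay below both control libraries, and the intervals, which cover counting error only, did not overlap between groups. The mean share was 37.6 ± 0.0698% in control and 7.63 ± 0.181% in butyrate (SD, n = 2), a 4.93-fold difference. The exact two-sided permutation p was 0.333, the smallest that 2 libraries against 2 allow. Within mouse 2 the butyrate share was 30.1 points lower, and within mouse 3 it was 29.8 points lower.

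The ratio of control to butyrate shares rose with the limit, while the difference in points shrank. At a limit of 5 per 10000 the mean shares were 56.7% in control and 24.3% in butyrate, a 2.33-fold difference. At a limit of 20 they were 10.5% and 0.268%, a 39.2-fold difference that rests on 6 and 8 butyrate cells. Members also had lower scores under butyrate, with medians of 15.95 and 15.92 per 10000 in control and 12.3 and 12.9 in butyrate. Other cells had median scores of 2.63 and 2.72 in control and 1.76 and 1.76 in butyrate. Near the limit, 73, 96, 41 and 41 cells (control 1, control 2, butyrate 1, butyrate 2) had scores from 10 to under 11, and 75, 87, 61 and 52 cells just below had scores from 9 to under 10. To compare cells at equal depth, every cell was also thinned to 6500 UMIs, where the mean shares were 36.3% and 8.56%.

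**Figure D1:**
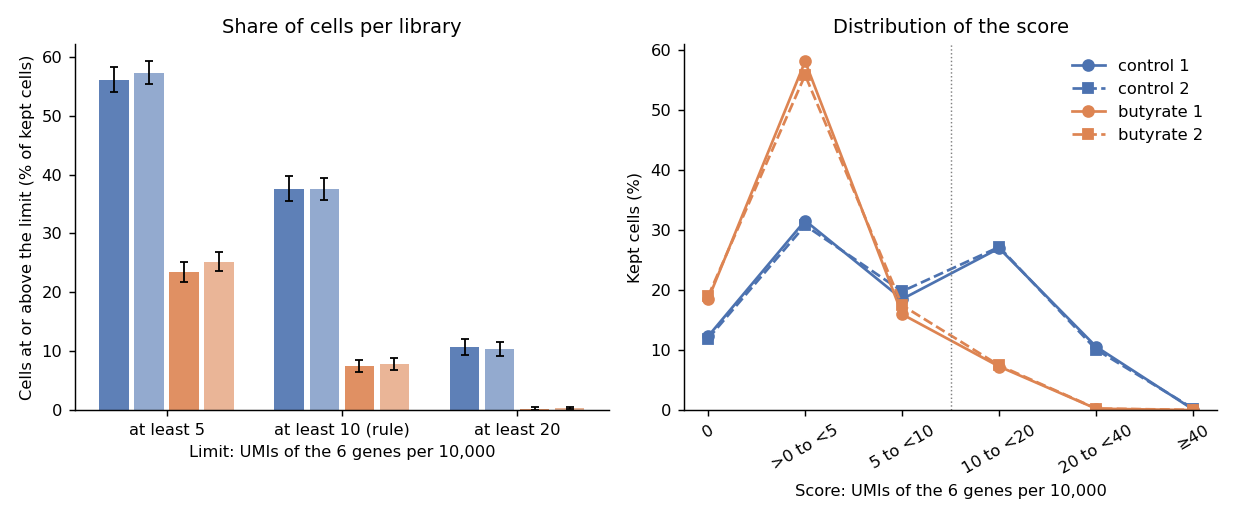
Left, percentage of kept cells at or above 3 limits of the 6-gene score (UMIs per 10,000) in each library, control in blue and butyrate in orange, darker bars for mouse 2 and paler bars for mouse 3, with exact 95% binomial intervals. Right, percentage of kept cells in each interval of the score per library, with the dotted line at the limit of 10; the butyrate libraries have most of their cells above 0 and under 5 (58.1% and 55.8%), and the control libraries hold about 27% between 10 and 20 (27.0% and 27.2%).

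Free RNA carries these transcripts too, and its level differed between groups. Barcodes with at most 100 UMIs, which are mostly empty droplets, held the 6 genes at 7.93 and 8.36 per 10000 UMIs in control and at 3.18 and 3.45 in butyrate. Its part in the shares was not tested. Members had more UMIs than other cells in every library, with medians of 25621 and 24752.5 in control and 33654 and 30550.5 in butyrate, against 19269, 18190, 24221 and 23396 in other cells. Barcodes above 2 times the library's median UMIs made up 16.1, 17.7, 14.6 and 14.1% of members and between 5.02 and 6.52% of other cells; leaving them out gave mean shares of 34.8% and 6.96%. The mitochondrial share of members had medians of 5.14 and 4.99% in control, against 3.84 and 4.25% in butyrate.

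The rule genes themselves are given as a description, since they chose the cells. Cenpf contributed between 30.8 and 33.8% of the score's UMIs in members of each library, and Cenpa between 25.4 and 28.0%. Aspm contributed 7.84 and 7.22% in control, against 5.09 and 5.51% in butyrate. Ccnb1 contributed 10.2 and 11.3% in control, against 13.4 and 13.9% in butyrate. In CPM, which are counts scaled to the same total per library, Aspm stood at 135 and 122 in control members and 67.0 and 73.2 in butyrate members, and Ccnb1 at 175 and 191 against 176 and 185. Plk1 contributed 8.96 and 8.67% in control, against 7.59 and 7.56% in butyrate, and Cdc20 13.9 and 14.9%, against 12.7 and 13.2%.

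Outside the rule, members carried a wide set of mitotic transcripts, which accords with the label; this contrast was fixed by the choice of cells and has no test. Of 170 genes in 9 lists of mitotic genes, 140 had a higher mean level in members than in other cells, with a median log2 ratio of 0.46. Over all genes, 5967 of 12747 were higher in members, with a median of -0.016. Ube2c, a ubiquitin-conjugating enzyme that works with the anaphase-promoting complex, had the highest ratio among abundant genes, 3.94-fold. Next came Cdc25b, a phosphatase that activates CDK1 (3.60-fold), Aurka, the Aurora A kinase of spindle poles (3.097-fold), Hmmr, a spindle factor (2.98-fold), Cdkn3 (2.87-fold) and the kinetochore motor Cenpe (2.84-fold). Prc1, which bundles microtubules of the midzone, was 2.68-fold higher, and Ccnb2, encoding cyclin B2, 2.59-fold. Among the lowest in members were Ccl5, a chemokine (0.396-fold), Ccne1, the cyclin E1 gene of the G1 to S transition (0.410-fold), and the replication genes Mcm6 (0.581-fold), Prim1 (0.600-fold) and Pcna (0.609-fold). Only 2 of 42 S phase genes had a higher mean level in members. CHR cores within 50 bases of the start were found for 55 of the 140 mitotic list genes matched in the promoter table (39.3%), of the 170 listed, and for 4 of 30 matched S phase genes.

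The next question was what butyrate changed inside the members. UMIs of members were summed per library, the 6 rule genes were left out, and the sums were compared with edgeR's quasi-likelihood test; CPM below are those of these sums after TMM scaling, and a gene counts as higher or lower at a Benjamini-Hochberg adjusted p under 0.05 over all genes tested. Of 11502 genes, 3097 were higher (26.9%) and 3018 lower (26.2%) under butyrate, with a median log2 fold change of -0.018. Scaling by library totals alone moved this median to -0.18 and the split to 2257 higher and 4366 lower, so changes below about this shift depend on the scaling. Because control members extended to higher scores, the comparison was repeated among members with scores from 10 to under 15, an alternative chosen after seeing the data. It called 2657 of 10727 genes higher (24.8%) and 2488 lower (23.2%). Below, this range is called matched scores, although scores within it were not matched and may still differ between groups. List counts below are to be read beside the 26.9% and 26.2% of all genes.

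Mitotic genes were more often lower than higher in butyrate members. Of 170 tested in the 9 lists, 103 were lower, 20 higher and 47 were not called, with a median log2 fold change of -0.31 beside -0.018 for all genes. Among members with scores from 10 to under 15, which are fewer cells, 72 of 170 were lower and 23 higher (median -0.22). Over all genes in that range, 23.2% were lower and 24.8% higher. Under library totals 125 were lower and 11 higher. CHR cores within 50 bases of the start were held by 32 of the 81 matched genes that were lower (39.5%) and by 5 of the 18 matched genes that were higher (27.8%).

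Among kinases, cyclins and phosphatases, 14 of 19 were lower and 4 higher (median -0.36). With matched scores these counts were 7 and 5. DESeq2 called 8 of them lower and 4 higher, beside 1781 lower and 2304 higher over all genes. Plk4, the kinase that starts centriole duplication, was at 67.2 and 65.1 CPM in control and 41.2 and 40.8 CPM in butyrate members, and fell by 0.69 on the log2 scale (SE 0.08, edgeR adjusted p = 8.47e-07). Ccna2, encoding cyclin A2, was at 196 and 196 CPM in control and 141 and 143 CPM in butyrate, and fell by 0.46 (edgeR adjusted p = 5.17e-06). For both genes each butyrate library lay below each control library. Cdk1, the main mitotic kinase, was at 247 and 242 CPM in control and 306 and 294 CPM in butyrate, a rise of 0.29 (edgeR adjusted p = 0.000405) that was 0.13 under library totals (edgeR adjusted p = 0.0682). Cks1b, a small CDK-binding protein, was at 256 and 268 against 362 and 355 CPM and rose by 0.45 (edgeR adjusted p = 3.45e-06). Aurka was at 95.7 and 94.1 against 114 and 106 CPM (0.21, edgeR adjusted p = 0.0144), but only 0.05 under library totals (edgeR adjusted p = 0.532), and 0.17 without butyrate 1 (edgeR adjusted p = 0.159).

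Of 20 genes of the anaphase-promoting complex 6 were higher and 6 lower (median -0.03), shares near the 26.9% and 26.2% of all genes. Pttg1, encoding securin, the inhibitor of separase, was at 30.6 and 30.5 CPM in control and 57.5 and 54.3 CPM in butyrate members, a rise of 0.87 (SE 0.08, edgeR adjusted p = 5.77e-08). The catalytic subunit gene Anapc11 was at 151 and 156 against 282 and 274 CPM and rose by 0.85 (edgeR adjusted p = 1.16e-09). Ube2s, which extends ubiquitin chains for the complex, was at 766 and 787 against 990 and 1003 CPM and rose by 0.36 (edgeR adjusted p = 1.03e-05). These 3 genes were higher in both butyrate libraries, while the scaffold subunit gene Anapc5, at 207 and 196 against 143 and 144 CPM, fell by 0.49 (edgeR adjusted p = 3.52e-06). Ube2c was at 765 and 816 against 788 and 828 CPM and was not called (0.03, edgeR adjusted p = 0.659); its sign turned under library totals (-0.13), and with matched scores it was 0.28 (edgeR adjusted p = 6.07e-05). Ccnb2 was likewise not called, at 172 and 179 against 170 and 176 CPM (-0.02, edgeR adjusted p = 0.790), but it was called in both directions by alternatives: 0.20 with matched scores (edgeR adjusted p = 0.0117), -0.18 under library totals (edgeR adjusted p = 0.0229) and -0.18 at a score limit of 5 (edgeR adjusted p = 0.00623).

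Genes of the spindle assembly checkpoint, which delays anaphase until chromosomes are attached, were lower in 7 of 13 cases and higher in 2 (median -0.23; 4 and 2 with matched scores). Zw10, a kinetochore protein of this checkpoint, was at 25.9 and 25.6 against 18.3 and 15.7 CPM and fell by 0.60 (edgeR adjusted p = 0.000154). Bub3, a checkpoint subunit, was at 254 and 263 against 316 and 324 CPM and rose by 0.31 (edgeR adjusted p = 0.00025).

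Centromere and kinetochore genes were lower in 23 of 35 cases and higher in 3 (median -0.37). Hjurp (ENSMUSG00000044783, GRCm38 chromosome 1, 88262471 to 88277633, minus strand), the chaperone that deposits CENP-A at centromeres, was at 194 and 174 CPM in control and 92.6 and 100.1 CPM in butyrate members. It fell by 0.93 (SE 0.07, edgeR adjusted p = 4.79e-09), and by 0.72 with matched scores. Knl1, the kinetochore scaffold, was at 138 and 125 against 76.7 and 83.4 CPM and fell by 0.71 (edgeR adjusted p = 2.49e-07). Ska2 and Sgo1, which bind spindle microtubules and protect cohesion, fell by 0.77 and 0.69. The 3 higher genes of this group were Cenpx, Cenpp and Itgb3bp, named after their values were seen, with log2 fold changes of 0.25, 0.32 and 0.97.

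The chromosomal passenger complex, which corrects faulty attachments, was the mitotic list with a median above 0 (0.11; -0.05 under library totals). Birc5 (ENSMUSG00000017716, chromosome 11, 117849251 to 117855743, plus strand) encodes survivin, its targeting subunit. It was at 504 and 514 CPM in control members and 777 and 805 CPM in butyrate members, a mean of 509 ± 6.45 against 791 ± 19.6 CPM (SD, n = 2). Both butyrate libraries were above both controls, and the rise was 0.64 (SE 0.05, edgeR adjusted p = 1.3e-08), 0.72 with matched scores. Incenp, the scaffold of the same complex, was at 206 and 198 against 161 and 163 CPM and fell by 0.32 (edgeR adjusted p = 0.000317). Aurkb, its kinase, was at 117 and 116 against 130 and 135 CPM (0.19, edgeR adjusted p = 0.0227), but 0.03 under library totals (edgeR adjusted p = 0.741). The Aurkb call was also lost without butyrate 1 (0.21, edgeR adjusted p = 0.0529) and without butyrate 2 (0.16, edgeR adjusted p = 0.163).

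Spindle motors and microtubule factors were lower in 19 of 27 cases with none higher (median -0.40; 12 lower and 1 higher with matched scores). Pcnt, encoding the centrosome scaffold pericentrin, was at 73.4 and 67.7 against 41.0 and 37.5 CPM and fell by 0.84 (edgeR adjusted p = 1.32e-07). Nusap1, a microtubule bundler, was at 346 and 308 against 224 and 211 CPM and fell by 0.59 (edgeR adjusted p = 6.23e-07). Cytokinesis genes were lower in 9 of 11 cases with none higher (median -0.38; 4 and 1 with matched scores). Anln, encoding the contractile ring protein anillin, was at 38.8 and 30.4 against 18.3 and 19.3 CPM and fell by 0.87 (edgeR adjusted p = 6.21e-05).

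Condensin and cohesin genes were lower in 16 of 22 cases and higher in 1 (median -0.32). Stag2, a cohesin subunit, was at 78.5 and 68.2 against 37.6 and 34.97 CPM and fell by 1.01 (edgeR adjusted p = 3.53e-08). Rad21, the cohesin subunit cut at anaphase, was at 235 and 215 against 160 and 158 CPM and fell by 0.50 (edgeR adjusted p = 3.3e-06). Top2a, the topoisomerase that untangles chromosomes, was the gene called higher, by 0.14 (edgeR adjusted p = 0.0469), which became -0.02 under library totals. Mki67, which coats mitotic chromosomes, was at 789 and 702 against 680 and 632 CPM (-0.18, edgeR adjusted p = 0.0182), and was -0.05 with matched scores (edgeR adjusted p = 0.427). The Top2a call was also lost without control 2 (0.07) and without butyrate 1 (0.10), and the Mki67 call without control 1 (-0.10) and without butyrate 2 (-0.13).

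Of the transcription factors that control mitotic genes, 8 of 19 were lower and 2 higher (median -0.10; -0.04, -0.19 and -0.19 without control 1, control 2 and butyrate 2). Foxm1 was at 39.5 and 32.9 CPM in control members and 18.6 and 21.5 CPM in butyrate members, and fell by 0.85 (SE 0.12, edgeR adjusted p = 7.63e-06). E2f7, a repressor of E2F targets, was at 10.5 and 9.72 against 5.12 and 5.16 CPM and fell by 0.97 (edgeR adjusted p = 0.000124). E2f4 and Tfdp1, subunits of DREAM, rose by 0.40 and 0.41.

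**Figure D2:**
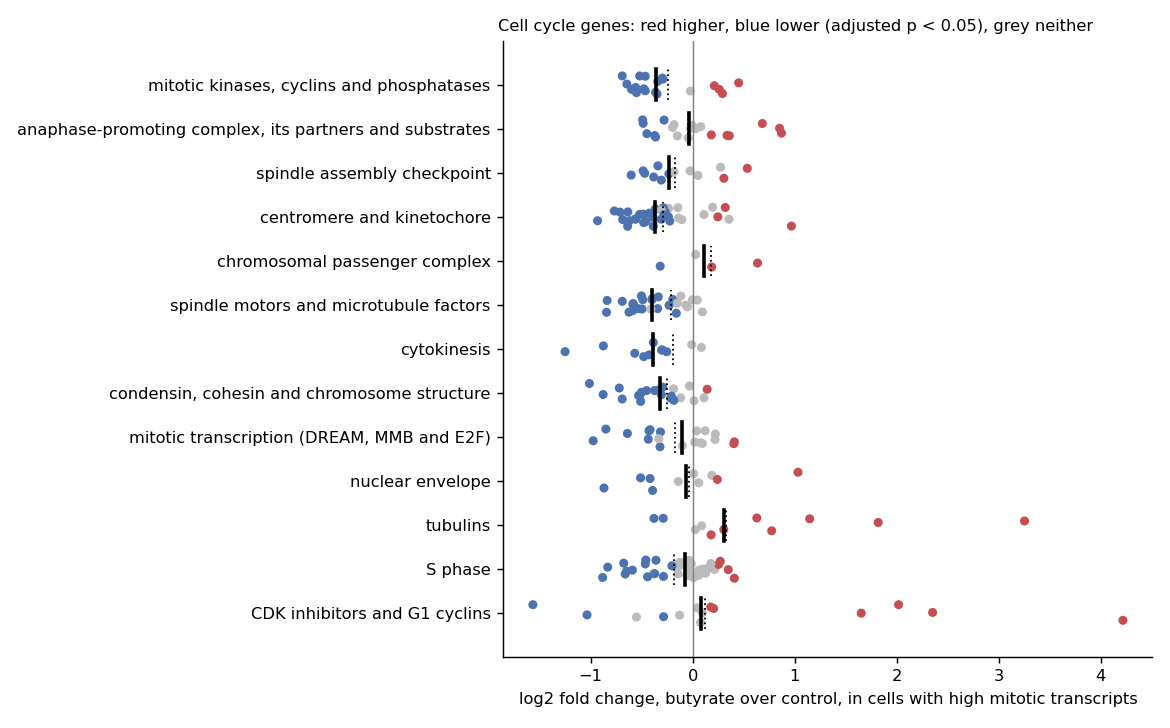
Log2 fold change (butyrate over control) of each tested gene in cells with high mitotic transcripts, grouped by list; red points were higher and blue points lower at an edgeR adjusted p under 0.05, grey points neither, and vertical jitter has no meaning. The solid bar is the list's median and the dotted bar the median among members with scores from 10 to under 15; spindle and cytokinesis genes lie almost wholly at or left of 0 and tubulins mostly right of it.

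Groups of related function were also counted. Tubulin genes were higher in 7 of 11 cases and lower in 2 (median 0.31; 0.19 without butyrate 2), with Tuba1c, an alpha tubulin, at 436 and 392 against 657 and 624 CPM (0.63, edgeR adjusted p = 7.55e-08). Tubb2a, a beta tubulin, was at 6.40 and 7.06 against 22.7 and 24.98 CPM and rose by 1.82 (edgeR adjusted p = 1.06e-09). Assignment of UMIs between close paralogues, of tubulins as of granzymes below, was not resolved. Nuclear envelope genes were lower in 4 of 10 cases (2 without butyrate 2) and higher in 2, led by Tmpo, encoding a lamina protein, which fell by 0.87. S phase genes were lower in 13 of 42 cases and higher in 5 (median -0.07; 25 and 1 under library totals, 17 and 1 with matched scores). Mcm5, a subunit of the replicative helicase, was at 115 and 109 against 71.6 and 71.6 CPM and fell by 0.65 (edgeR adjusted p = 4.48e-07).

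Inhibitors of cyclin-dependent kinases split. Cdkn1a (ENSMUSG00000023067, chromosome 17, 29090976 to 29100727, plus strand), encoding p21, was at 43.9 and 49.1 CPM in control and 139 and 154 CPM in butyrate members, and rose by 1.65 (SE 0.08, edgeR adjusted p = 2.27e-12). Cdkn1b, encoding p27, was at 76.2 and 64.2 against 23.2 and 24.1 CPM and fell by 1.57 (edgeR adjusted p = 4.56e-10). Cdkn2a, encoding p16 and ARF, was at 5.89 and 7.33 against 27.1 and 27.0 CPM and rose by 2.02 (edgeR adjusted p = 3.17e-10), while Cdkn2c, encoding p18, fell by 1.03. In all, 6 of the 14 tested CDK inhibitors and G1 cyclins were higher and 3 lower. Of 18 tested p53 target genes, 10 were higher and 3 lower (median 0.34), among them Zmat3 and Phlda3, up by 1.83 and 1.49, and Sesn1, down by 1.16. Cells in the class with high mitotic transcripts therefore carried more p21 mRNA under butyrate, with no overlap between the groups; over all genes tested, 77.3% did not overlap.

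Effector genes of killer T cells were higher in 20 of 29 tested cases and lower in 2 (median 1.65; 1.07 without butyrate 2). Gzmb, encoding granzyme B, was at 2579 and 2811 CPM in control and 9481 and 8585 CPM in butyrate members, and rose by 1.74 (SE 0.05, edgeR adjusted p = 3.26e-14). Prf1 (ENSMUSG00000037202, chromosome 10, 61297833 to 61304680, plus strand), encoding the pore protein perforin, was at 23.8 and 29.9 against 325 and 359 CPM and rose by 3.66 (SE 0.10, edgeR adjusted p = 2.97e-12). Neither gene overlapped between groups. Gzmk, a further granzyme, rose by 4.78 from 1.44 and 2.05 to 47.1 and 51.3 CPM. Ccl5 was at 28.4 and 54.5 against 703 and 704 CPM (4.07, edgeR adjusted p = 0.019), but its call was lost with the mouse as a block (edgeR adjusted p = 0.0791) and without either butyrate library (0.200 and 0.199).

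Of 18 tested memory and stemness genes, 4 were higher and 5 lower (median -0.11), near the 26.9% and 26.2% of all genes. That median was -0.07, -0.01 and -0.17 without control 1, control 2 and butyrate 2. In other cells, 13 of 20 memory and stemness genes were lower and 3 higher (median -0.30), beside 34.4% and 34.1% of all genes there. Tcf7, encoding the transcription factor TCF1 of stem-like T cells, was at 25.04 and 26.8 CPM in control and 10.7 and 19.0 CPM in butyrate members, and fell by 0.81 (SE 0.18, edgeR adjusted p = 0.00402). Il7r, encoding CD127, was at 37.8 and 38.6 against 41.2 and 51.0 CPM (0.27, edgeR adjusted p = 0.0224). The Il7r call was lost under library totals (0.11, edgeR adjusted p = 0.338) and without butyrate 2 (0.11, edgeR adjusted p = 0.507), and its sign turned without members above 2 times the median UMIs (-0.05). Foxo1, a factor of quiescence and memory, was at 48.1 and 46.2 against 110 and 104 CPM and rose by 1.18 (edgeR adjusted p = 1.32e-10). Targets of interleukin-2 and STAT5 were higher in 15 of 19 cases and lower in 2 (median 0.42), and inhibitory receptor genes in 8 of 14 with 1 lower (median 0.71; 0.36 without butyrate 1).

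Interferon response genes were lower in 15 of 26 tested cases and higher in 5 (median -0.61), with Samd9l, an antiviral gene, at 84.3 and 76.2 against 19.5 and 19.3 CPM (-2.04, edgeR adjusted p = 2.85e-12). Cholesterol synthesis genes were lower in 20 of 24 cases and higher in 1 (median -0.57). Insig1, a sensor of sterols, was at 59.6 and 54.8 against 18.1 and 20.1 CPM and fell by 1.58 (edgeR adjusted p = 2.29e-10). Glycolysis genes were lower in 11 of 20 cases and higher in 1 (median -0.23), and of 15 tested histone deacetylase and sirtuin genes 5 were higher and 6 lower (median -0.22). Hdac1, a class I deacetylase, was at 97.4 and 95.5 against 195 and 198 CPM and rose by 1.02 (edgeR adjusted p = 1.54e-10). Of the linker and variant histones, 4 of 13 were higher and 4 lower, near the 26.9% and 26.2% of all genes. H1f0, the linker histone of resting cells, was at 72.3 and 71.8 against 114 and 113 CPM and rose by 0.65 (edgeR adjusted p = 1.97e-07).

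Among genes whose mean reached 20 CPM, the largest rise was that of Cd63, encoding a tetraspanin of granules and endosomes, from 0.424 and 0.437 CPM (10 and 13 UMIs) to 49.5 and 36.5 CPM, by 6.62 (SE 0.21, edgeR adjusted p = 1.16e-14). Beside Gzmk, Ccl5 and Prf1 above, the other large rises were those of Ckb, a creatine kinase (4.84), the metallothionein Mt3 (4.17), Fxyd7 (3.81), the cytokine gene Lta (3.80), the serpin gene Serpine2 (3.75), Selenom (3.55), Pmepa1 (3.37) and Rcn3 (3.26). The largest fall was that of Fads2, a fatty acid desaturase, from 36.3 and 43.9 to 6.57 and 11.8 CPM, by 2.13 (SE 0.21, edgeR adjusted p = 6.47e-05). St3gal6, Slfn2, Abcb1b and Ighm fell by 2.09, 2.07, 1.86 and 1.86, Mthfd1l, Ifi203, Gpr171 and Egln3 by 1.86, 1.80, 1.78 and 1.74, and P2ry10 and Pck2 by 1.68 and 1.61.

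The last comparison asked where butyrate acted differently in members and in other cells, by testing the difference of the 2 log2 effects (the effect in members minus that in other cells) over 8 sums. Of 12747 genes, 286 had a higher value (2.24%) and 683 a lower value (5.36%) in members; scaled by library totals the split was 574 and 315. Leaving out a library gave from 84 to 233 higher and from 237 to 391 lower, the fewest without a butyrate library. In the other cells taken alone, 4473 of 13112 genes were higher (34.1%) and 4512 lower (34.4%) under butyrate. There, 85 of 170 mitotic genes were lower and 41 higher (median -0.13). Cholesterol synthesis genes were lower there in 22 of 24 cases and higher in 2 (median -0.43). Interferon response genes were lower there in 21 of 33 cases and higher in 5 (median -0.89). Effector genes were higher there in 20 of 31 cases and lower in 3 (median 1.40). Targets of interleukin-2 and STAT5 were higher there in 16 of 19 cases and lower in 2 (median 0.53). Tubulin genes were higher there in 8 of 11 cases and lower in 2 (median 0.44), and p53 targets in 10 of 19 and 4 (median 0.29).

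Of the 170 mitotic genes, 73 had a lower and 1 a higher effect in members than in other cells, but 35 and 2 under library totals. The classes were cut on mitotic transcripts and most of these genes were higher in members, so the choice of cells may shape these counts. How far it does was not tested. With members limited to scores from 10 to under 15 and other cells unchanged, these counts were 27 and 1. Over all genes that limit gave 661 lower and 310 higher. The lower count was 36 without control 1, 43 without control 2, 29 without butyrate 1 and 34 without butyrate 2. Scaled over the 8 sums, Ube2c stood at 757 and 806 CPM in control and 763 and 804 CPM in butyrate members, and at 167 and 163 against 234 and 242 CPM in other cells. Its effect was 0.52 lower on the log2 scale in members (value -0.52, SE 0.05, edgeR adjusted p = 1.94e-26). The sign turned (0.48) when other cells were limited to those without a UMI of the rule genes. Ube2c rose with the score that defines the classes, as given below. The test therefore cannot separate a class-specific effect of butyrate on Ube2c from the choice of cells. Esco2, an acetyltransferase of sister chromatid cohesion, was at 56.1 and 46.5 against 30.2 and 30.7 CPM in members and at 54.7 and 46.5 against 49.0 and 48.1 CPM in other cells (-0.69, edgeR adjusted p = 2.65e-11). Cdkn2c was at 44.4 and 44.9 against 20.3 and 22.5 CPM in members and at 27.3 and 25.2 against 20.1 and 20.2 CPM in other cells (-0.68, edgeR adjusted p = 4.84e-08). Under butyrate both classes were at a similar level of Cdkn2c, and in control members were higher.

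For the following genes the effect was more negative in members. Prf1 was at 23.5 and 29.6 against 315 and 349 CPM in members and at 29.9 and 32.7 against 638 and 678 CPM in other cells (-0.76, SE 0.07, edgeR adjusted p = 2.52e-25), a call lost with matched scores (-0.64, edgeR adjusted p = 0.183) and at a score limit of 5 (-0.24, edgeR adjusted p = 0.459). Il2ra, encoding the alpha chain of the interleukin-2 receptor, was at 117 and 126 against 195 and 191 CPM in members and at 131 and 130 against 336 and 339 CPM in other cells (-0.70, SE 0.06, edgeR adjusted p = 2.22e-31). Batf3, a transcription factor, was at 11.9 and 17.6 against 19.8 and 24.6 CPM in members and at 12.3 and 20.5 against 50.6 and 51.4 CPM in other cells (-1.05, SE 0.11, edgeR adjusted p = 7.15e-17). For these 3 genes the control levels of the classes were close and the butyrate levels were lower in members; the rise of Batf3 in members alone did not pass (0.60, edgeR adjusted p = 0.0539). Cdkn1a also rose less in members (-0.39, edgeR adjusted p = 5.63e-07). Gzmb differed by -0.19 (edgeR adjusted p = 8.98e-07), a call that was lost with the mouse as a block (edgeR adjusted p = 0.409), without control 2 (-0.11) and without butyrate 2 (-0.12).

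Tcf7 differed in the other direction. It was at 24.8 and 26.5 against 10.4 and 18.4 CPM in members, and at 34.9 and 34.9 against 8.19 and 8.60 CPM in other cells (1.21, SE 0.14, edgeR adjusted p = 6.21e-15). In butyrate 2, 7 members with scores from 20 to under 40 gave 23 Tcf7 UMIs and 1 member with a higher score gave 7, beside 84 UMIs from its 198 members with scores under 20. Kdm5b, a histone demethylase, was at 22.1 and 17.4 against 31.2 and 30.7 CPM in members and at 26.5 and 24.0 against 20.7 and 23.2 CPM in other cells (0.86, SE 0.11, edgeR adjusted p = 1.25e-12). Pdcd4, an inhibitor of translation, fell in both classes, and less in members (0.81, edgeR adjusted p = 4.46e-14).

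**Figure D3:**
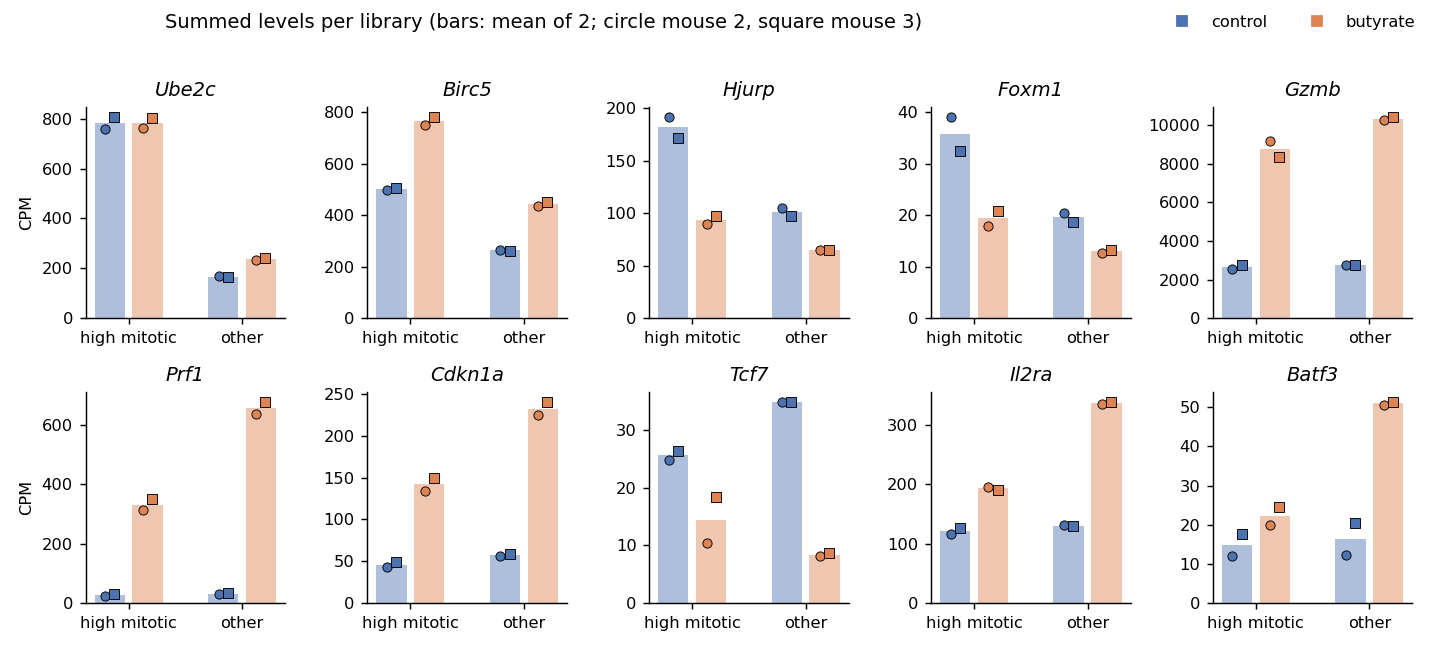
Levels in CPM (scaled over 8 sums) of 10 genes in cells with high mitotic transcripts and in other cells; bars are means of the 2 libraries of a group, circles mouse 2 and squares mouse 3. Hjurp and Foxm1 are higher in control than in butyrate in both classes, Birc5 the reverse, and the butyrate levels of Prf1, Il2ra and Batf3 are lower in the high mitotic cells than in other cells.

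**Figure D4:**
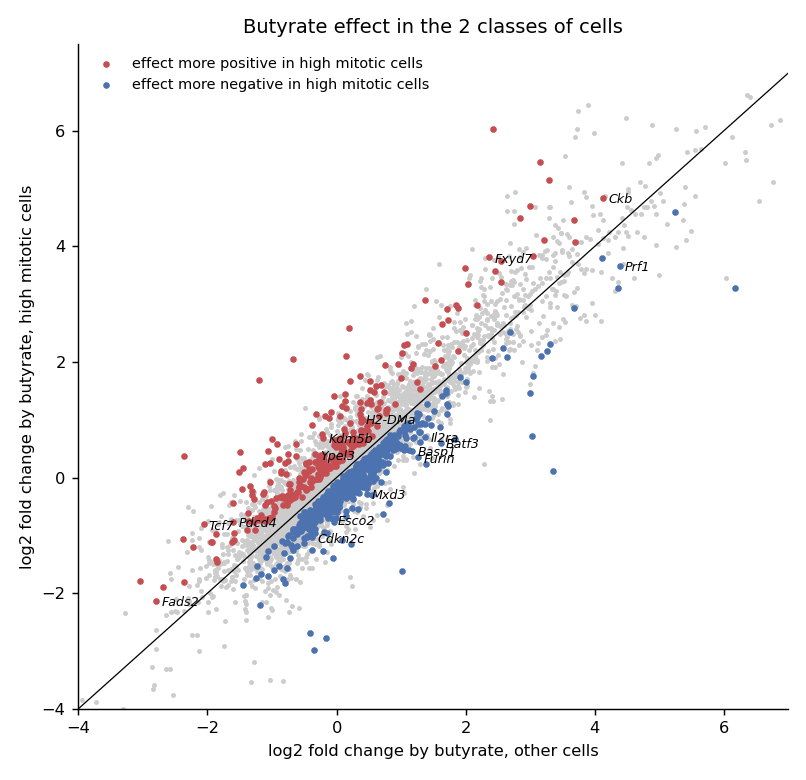
Log2 fold change by butyrate in other cells (horizontal) and in cells with high mitotic transcripts (vertical), 1 point per gene with a fitted value in both; the line marks equal effects. Red points (286 genes tested) have a more positive and blue points (683) a more negative effect in the high mitotic cells at an edgeR adjusted p under 0.05, and the labelled genes are the 8 largest differences in each direction among genes whose mean reached 20 CPM; a few genes lie outside the axes.

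Levels along the score are given with no test. In CPM of each interval's own total, without TMM scaling, Prf1 in butyrate 1 and 2 was at 684 and 683 in cells with a score of 0, at 594 and 676 above 0 to under 5, at 477 and 425 from 5 to under 10, and at 313 and 345 from 10 to under 20. In control it was between 23.7 and 42.2 in these 4 intervals. Birc5 climbed with the score in all libraries, and both butyrate libraries were above both controls in each interval, from 49.7 and 48.2 against 19.6 and 24.3 at a score of 0 to 730 and 753 against 513 and 513 from 10 to under 20. Ube2c was higher in butyrate from above 0 to under 5 (160 and 161 against 92.5 and 92.2) and from 5 to under 10 (493 and 496 against 333 and 318), but level from 10 to under 20 (740 and 779 against 729 and 788). Mcm5 was lower in butyrate in the 3 intervals above 0, with 67.4 and 68.8 against 129 and 123 from 10 to under 20, but not at 0, where it was at 110 and 101 against 91.3 and 71.5.

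Control cells with scores from 20 to under 40 carried more Tcf7 and Il7r than those from 10 to under 20. They carried less than control cells with a score of 0, where Tcf7 was at 93.3 and 96.4 and Il7r at 155 and 166 CPM. From 10 to under 20, Tcf7 was at 22.2 and 20.8 and Il7r at 33.0 and 29.3 CPM, and from 20 to under 40, over 218 and 266 cells, Tcf7 was at 38.1 and 50.8 and Il7r at 58.5 and 75.7. Batf3 went the other way, from 15.8 and 23.5 to 4.10 and 4.06. Butyrate libraries had 6 and 7 cells from 20 to under 40, too few to compare. At 40 or more, the control libraries had only 2 and 7 cells.

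**Figure D5:**
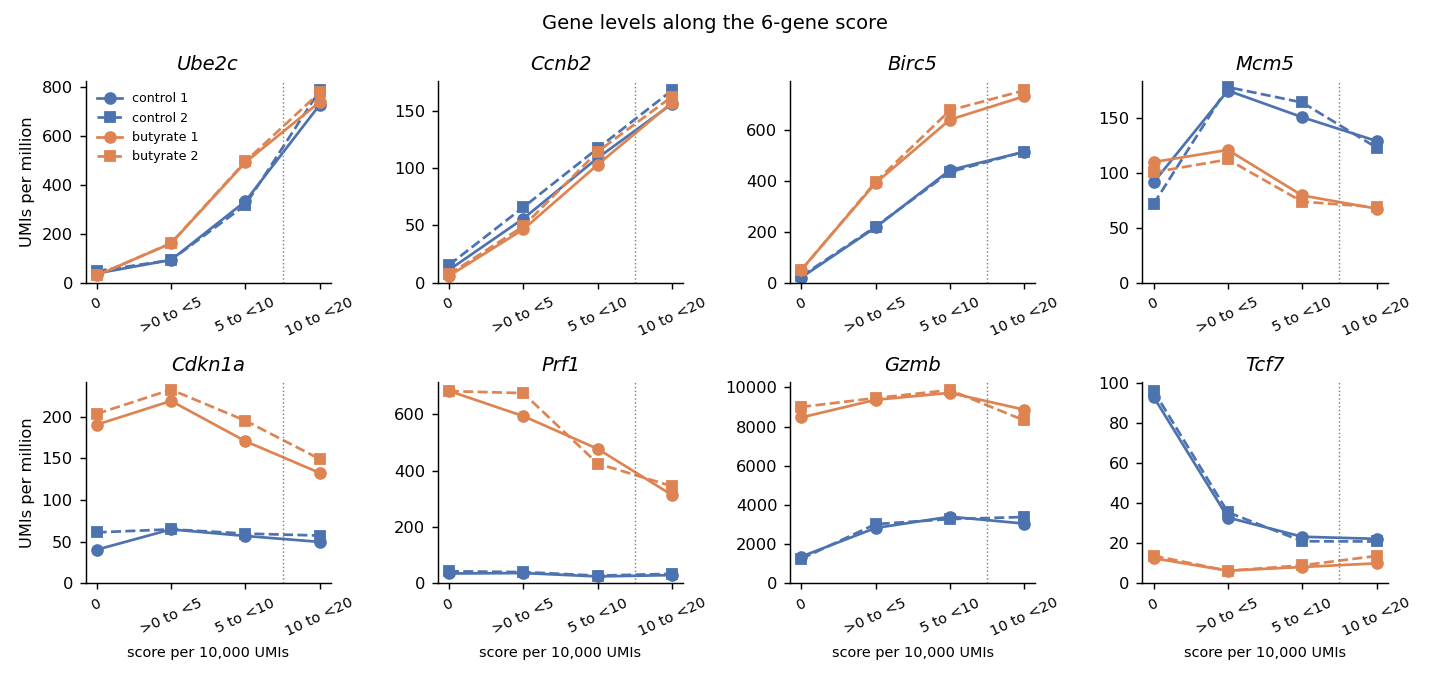
CPM (UMIs scaled to each interval's own total) of 8 genes in cells grouped by the 6-gene score, 1 line per library (control blue, butyrate orange, solid with circles for mouse 2, dashed with squares for mouse 3); the dotted line marks the limit of 10. Ube2c, Ccnb2 and Birc5 climb with the score, Prf1 is lower from 10 to under 20 (313 and 345) than at a score of 0 (684 and 683) in butyrate, and of the 4 intervals plotted Tcf7 is highest at a score of 0 in control (93.3 and 96.4).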

How the data were processed

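Single cells were captured with 10x 3' v3.1 chemistry, per the labels' protocols. The deposited matrices hold raw UMI counts per gene and barcode for 32285 genes, with gene and barcode names in other deposited files. Cell Ranger 4, Seurat 4.3 and mm10 are named by the submitters' processing notes; the annotation release, and whether introns were counted, is not given in the sources used here. Members and gene lists were chosen with earlier results of these data known.

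Cells were filtered and scored as in the report; no doublet caller was run. Counts of members and of other cells were summed per library, the 6 rule genes were left out, and sums were tested in edgeR 4.0.16 (R 4.3.3; TMM, filterByExpr, robust quasi-likelihood F test, Benjamini-Hochberg). Members were fitted with group only. The difference of effects was fitted with library, class and class by butyrate as terms. The SE is the log2 value divided by the square root of F. P-values draw on spread pooled over genes. DESeq2 1.42.0, other scalings, limits, thinning and leaving out each library were alternatives. On simulated data, a log2 change of 1 was recovered for 99% of changed genes in members (11204 genes) and 96% of changed differences (11499 genes). For a change of 0.5 these were 67% and 34%. The simulation changed 100 genes of each size, all among the more abundant, with one spread for all genes and no effect in other cells. Far more genes were called in the data, so these rates need not hold there.

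Named genes were the 12 largest changes in each direction whose mean reached 20 CPM and whose groups did not overlap, a fixed set of cell cycle and T cell genes, up to 4 genes per list with the smallest p, the 8 largest differences between classes in each direction, and the highest and lowest ratios of members to other cells. Others named among the mitotic lists account for those lists. One gene that the rule names is not reported here. The 30 lists included markers of 7 cell types. Coordinates are from GENCODE M21 (GRCm38), which had 32158 of the 32285 gene IDs, and promoters from RefSeq (GRCm38.p6). Replicate numbers pair cultures of the same mouse, per the labels; deviations of same-mouse libraries from their group means correlated at 0.0341 (Spearman 0.00814) over 11502 genes.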

Additional observations from a re-analysis of the deposited data

Results flagged for a closer look

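The results here are genes whose butyrate effect differed between cells with high mitotic transcripts and other cells by the edgeR test of the difference itself; each value is the log2 effect in members minus that in other cells. Tcf7 (1.21), Prf1 (-0.76), Il2ra (-0.70), Batf3 (-1.05), Kdm5b (0.86), Pdcd4 (0.81), Esco2 (-0.69) and Cdkn2c (-0.68) are described in the report.

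Fxyd7, a regulator of the sodium pump, had the largest positive difference among genes whose mean reached 20 CPM (1.41), with effects of 3.81 in members and 2.37 in other cells. Ypel3 differed by 0.70, with 45.6 and 43.7 CPM in control and 50.4 and 65.8 CPM in butyrate members, against 65.8 and 60.6 and then 47.6 and 52.9 CPM in other cells. Ckb differed by 0.68 and H2-DMa, which helps load class II molecules, by 0.61. Fads2 differed by 0.63, a call lost without butyrate 2 (0.30, edgeR adjusted p = 0.660), at a score limit of 5 (0.28, edgeR adjusted p = 0.121) and against other cells without a UMI of the rule genes (0.48, edgeR adjusted p = 0.324).

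On the negative side, Furin, a protein convertase, differed by -0.94, with 15.04 and 13.2 CPM in control and 17.7 and 17.5 CPM in butyrate members, against 13.7 and 15.9 and then 38.4 and 33.1 CPM in other cells. Mxd3, a MYC-network factor, differed by -0.78 and had opposite signs in the classes, with effects of -0.28 in members (not called, edgeR adjusted p = 0.0501) and 0.47 in other cells. Basp1 differed by -0.74, with effects of 0.47 and 1.18.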

How the results depend on the processing

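With 2 libraries per group, the permutation test of a single value does not reach 0.05, and p-values across genes do not carry over to other mice. Depth limits butyrate members, with 192 and 206 cells, and most of all those at a score of 20, with 14 cells, where 106 of the calls lost over all alternatives fell.

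The share of members (butyrate minus control, in points) was -32.4 at a score of 5, -10.2 at 20, -28.8 with a minimum of 3000 UMIs, -27.3 with a mitochondrial limit of 5%, -30.7 with none, -27.9 without cells above 2 times the median UMIs and -27.8 thinned; the cause was not tested here or below. Genes higher and lower in members numbered 105 and 73 at a score of 20, 1651 and 1344 thinned, and 1781 lower in DESeq2. Genes with a higher and lower difference between classes numbered 574 and 315 with library totals, 894 and 1573 at a score of 5, 52 and 133 at 20, and 1775 and 1540 against other cells without a UMI of the rule genes; leaving out a library gave 84 to 233 and 237 to 391. With the replicate block, 3154 genes were higher and 3108 lower in members and the difference counts were 227 and 581; it changed no other named call than those of Ccl5 and Gzmb.

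Signs turned at a score of 20 for Serpine2 (-0.64), Mki67 (0.26), Ccnb2 (0.16), Ube2c (-0.28), Tcf7 (1.15), Zw10 (0.24), Bub3 (-0.11), Arhgap11a (0.15), E2f4 (-0.85), Tfdp1 (-0.16), Lmna (-1.11), Ankle2 (0.55), Pgam1 (-0.055) and Cd8a (-0.42) in members, and for the differences of Ckb (-0.21), Mki67 (0.44), Top2a (0.31), Ube2c (0.024), Birc5 (0.10), Aurka (0.12) and Aurkb (0.071). Elsewhere they turned for Top2a (-0.017) and Ube2c (-0.13) with library totals, Ube2c without a filter (-0.017), at a score of 5 (-0.031), with a mitochondrial limit of 5% (-0.00567), and when single libraries were left out (-0.019 to 0.082), Ccnb2 with matched scores (0.20), and when single libraries were left out (-0.056 to 0.012), Il7r without cells of high UMIs (-0.047), and the differences of Ccnb2 at a score of 5 (-0.048) and of Ube2c against cells without a rule-gene UMI (0.48). List medians turned for the passenger complex with library totals (-0.051), cytokinesis at 20 (0.15), mitotic transcription at 20 (0.10) and at a mitochondrial limit of 5% (0.027), memory and stemness at 20 (0.27) and with matched scores (0.013), and NK (-0.29) and B cell markers (0.91) without a filter.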
